A study of Mus musculus with 18 samples.

Results

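Skin of mice treated with calcipotriol, ovalbumin and a linoleic acid-ceramide emollient (La-Cer) was set against skin of untreated control mice across all genes. The libraries were chosen by their group labels, which gave 3 La-Cer and 3 control skin libraries, 6 of the 18 libraries of the series. La-Cer mice received 4 nmol calcipotriol (MC903, an analogue of active vitamin D), 50 µg ovalbumin and the emollient for 28 days. AD mice received the same calcipotriol and ovalbumin without the emollient, and control mice are labelled as having had no treatment. All mice are labelled female and wild type (WT), with 3 mice in each group, and the sources used here give neither strain nor age. No group given the emollient alone or a vehicle alone is used here, so in La-Cer against control skin the effects of the 3 agents cannot be told apart. The 3 AD skin libraries entered the fit to estimate the spread, and their values stand beside those of the other groups.

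The epidermis is built of keratinocytes that divide in the basal layer, then switch to keratin 1 and keratin 10 and finally fill a cross-linked protein shell, the cornified envelope, while lipids rich in ceramide seal the space between the dead cells. Vitamin D analogues act on keratinocytes through the vitamin D receptor, and topical calcipotriol is used in mice to bring about a dermatitis with type 2 inflammation that ovalbumin makes allergen-specific. Linoleic acid is the fatty acid that is esterified to the longest epidermal ceramides, the acylceramides, which hold the lipid layers together.

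No gene was called different between La-Cer and control skin. Of 16956 genes tested, 0 (0.0%) had an adjusted p under 0.05 in edgeR's quasi-likelihood test with Benjamini-Hochberg adjustment, and the smallest adjusted p was 0.836. At an unadjusted p under 0.05 stood 968 genes (5.71% of those tested, where 5% would be 848), 632 of them higher in La-Cer (3.73%) and 336 lower (1.98%). The values below are therefore differences between 3 mice and 3 mice, given with their errors, and none is a call by this test. Counts of list members at this threshold are to be read against the 3.73% higher and 1.98% lower over all genes tested. DESeq2, run on the same counts, called 54 genes higher (0.318%) and 13 lower (0.0767%) at an adjusted p under 0.05, 40 of them among the 150 genes followed here. All 3 La-Cer libraries lay above all 3 control libraries for 1099 genes (6.48%) and below them for 1196 (7.05%).

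Single libraries moved these numbers. Without La-Cer library 1, 191 genes stood higher (1.09%) and 379 lower (2.16%) at an unadjusted p under 0.05. Without control library 3 the numbers were 1099 higher (6.35%) and 329 lower (1.9%), and without control library 1 they were 281 higher and 191 lower. Without AD library 3 they were 755 higher and 534 lower. edgeR called 0 genes in each of these fits. With no filter on low counts, 29956 genes were tested and edgeR called 6 higher (0.02%) and 1 lower (0.00334%), of which 6 were among the genes followed. Libraries held 13472283 to 18304788 counts in La-Cer and 15012196 to 18647521 in control.

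Control library 3 stood apart from the other control libraries. Its Spearman correlation over genes was 0.910 with control library 1 and 0.917 with control library 2, which correlated with each other at 0.982, and 0.965 with La-Cer library 2. Keratinocytes are marked by Krt5, Krt14, Krt1, Krt10, Lor and Trp63, and all 6 genes were detected in every library. Their levels in CPM, counts scaled to the TMM library size, summed to 31100, 35900 and 21500 in La-Cer libraries 1 to 3 and to 7000, 10400 and 29000 in control libraries 1 to 3. Krt10, a keratin of the suprabasal layers, had 6660, 6660 and 4290 CPM in La-Cer skin and 456, 982 and 6680 CPM in control skin. In control libraries 1 and 2 it was below every La-Cer library, and in control library 3 it was above them all. Hair follicle genes ran the other way among controls, with sums of 8960, 10300 and 37500 CPM in La-Cer and 33000, 15600 and 6340 CPM in control. In bulk skin, fewer cells of a type and less RNA per cell cannot be told apart.

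Transcript size moved with the groups too. The median log2 level of the longest of 5 classes of exonic size, less that of the shortest and relative to the mean of all 9 libraries, was -0.28, 0.43 and -0.02 in La-Cer, -0.96, -0.25 and -0.70 in AD, and 0.75, 0.24 and 0.64 in control (exact two-sided permutation p = 0.2 for La-Cer against control, where 3 against 3 cannot go below 0.1). Genes that stood higher at an unadjusted p under 0.05 had a median exonic size of 2188 bases, those that stood lower 5404.5 bases, and all genes tested 3863 bases. The part of this trend in the results was not tested, and for several lists the median with the trend in size and GC content removed is given beside the main one.

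**Figure D1:**
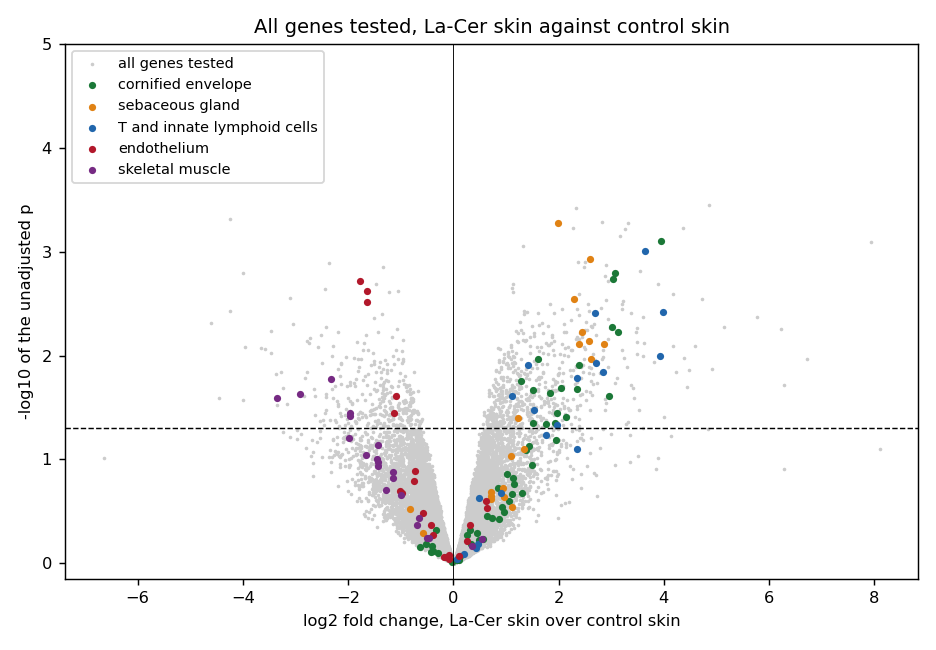
Each point is 1 of 16956 genes, placed by its log2 fold change in La-Cer over control skin and by -log10 of the unadjusted p of edgeR's test, with 5 gene lists coloured. The dashed line marks an unadjusted p of 0.05. Cornified envelope, sebaceous gland and T cell genes spread to the right, and endothelial and skeletal muscle genes to the left, but no gene passed after adjustment.

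Genes of the cornified envelope, the list with the most genes tested, held the largest number that stood higher in La-Cer skin, though not the largest share. Of 53 tested members of a list of 54, 18 (34.0%) stood higher at an unadjusted p under 0.05 and 0 lower, against 58.3% of the MHC class II list, 57.9% of the T and innate lymphoid cell list and 45.0% of the sebaceous gland list. La-Cer and control libraries did not overlap for 12 members (22.6%), all of them higher, against 6.48% of all genes tested. The median log2 difference over the list was 1.05, against -0.05 over all genes tested, and 0.67 with the size and GC trend removed. AD skin, compared with the same controls, had a median of 0.71. Without control library 3 the median was 2.11 with 33 members higher, and without La-Cer library 1 it was 0.85 with 7.

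The Lce1 genes, which encode late envelope proteins made in the outermost living layer, led this list. They lie in 1 cluster on chromosome 3 and have near-identical copies, so the share of reads of each copy is uncertain. The 150 bases before the RefSeq start of 4 of them (GRCm38.p6, minus strand) are shown because the genes stood higher together; the capitals mark CAGAATAAAA, the longest stretch that all 4 share.

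Lce1g, chr3:92752339-92752488: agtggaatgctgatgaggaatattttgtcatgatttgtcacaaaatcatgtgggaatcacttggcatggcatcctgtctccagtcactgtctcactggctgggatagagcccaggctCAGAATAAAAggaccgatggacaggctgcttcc
Lce1h, chr3:92765066-92765215: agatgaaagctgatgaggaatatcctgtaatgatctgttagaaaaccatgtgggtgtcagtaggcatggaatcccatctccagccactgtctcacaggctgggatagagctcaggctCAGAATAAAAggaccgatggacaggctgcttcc
Lce1j, chr3:92790515-92790664: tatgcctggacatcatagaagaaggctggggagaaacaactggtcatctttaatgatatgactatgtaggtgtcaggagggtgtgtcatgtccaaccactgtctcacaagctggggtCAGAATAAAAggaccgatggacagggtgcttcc
Lce1k, chr3:92807892-92808041: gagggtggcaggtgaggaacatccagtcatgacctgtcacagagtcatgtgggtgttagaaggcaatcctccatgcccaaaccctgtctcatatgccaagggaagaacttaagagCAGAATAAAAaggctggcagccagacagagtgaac

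The stretch began 33 bases before the start in Lce1g, Lce1h and Lce1j and 35 bases before it in Lce1k. Searched on both strands, it was in 9 of the 13 Lce1 promoters that RefSeq's table holds and in 0.0883% of all 32851 promoters of the same length. The stretch was picked from Lce1g, Lce1h, Lce1j and Lce1k, so their matches were fixed in advance and the 9 are not an independent count. The Lce1g and Lce1h windows matched at 130 of 150 bases without gaps, and Lce1g and Lce1k at 32. A match is a description of letters and not of a bound site.

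Lce1g (ENSMUSG00000027919, GRCm38 chromosome 3, 92750148 to 92752338) had 67.0, 7.57 and 50.6 CPM in La-Cer skin, 78.7, 25.9 and 24.3 in AD skin, and 1.45, 2.59 and 4.12 in control skin. Every La-Cer library lay above every control library, and the log2 difference between La-Cer and control was 3.94 ± 0.83 (SE; edgeR adjusted p = 0.836). Lce1h, Lce1j and Lce1k followed the same order of libraries, with La-Cer library 2 the lowest of its group in each, and log2 differences of 3.12 ± 0.90, 3.07 ± 0.73 and 3.04 ± 0.73.

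Filaggrin, encoded by Flg, bundles keratin filaments and is broken down to the moisturising factors of the skin surface. Flg (chromosome 3, 93273523 to 93293686) had 380, 38.8 and 139 CPM in La-Cer skin, 174, 240 and 81.6 in AD skin, and 8.31, 18.3 and 42.4 in control skin. La-Cer library 2 lay below control library 3, so the groups overlapped, and the log2 difference was 3.01 ± 0.85. Its relative Hrnr, hornerin, had 95.8, 49.9 and 54.0 CPM in La-Cer skin and 4.25, 10 and 41.5 in control skin, without overlap (log2 1.84 ± 0.69).

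Enzymes that process filaggrin were placed the same way. Casp14, a caspase of the granular layer, had 246, 69.4 and 98.5 CPM in La-Cer and 12.8, 37.0 and 59.0 in control skin (log2 1.93 ± 0.84). Asprv1, an aspartic protease that cuts profilaggrin, differed by 1.51 ± 0.56 and Cnfn, cornifelin, by 1.29 ± 0.46 on the log2 scale, and both overlapped between the groups. Calm4, a calmodulin-like protein of differentiated keratinocytes, had 2810, 754 and 1250 CPM in La-Cer and 69.1, 163 and 684 in control skin. It did not overlap, and its log2 difference was 2.39 ± 0.79.

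The abundant envelope proteins loricrin and involucrin did not share this pattern. Lor had 2300, 2760 and 1950 CPM in La-Cer skin, 956, 371 and 175 in AD skin, and 220, 456 and 2710 in control skin. La-Cer libraries lay close together and controls were split, with control library 3 at the La-Cer level, and the log2 difference was 1.05 ± 0.87 (edgeR adjusted p = 0.894). Ivl had 82.4, 46.5 and 295 CPM in La-Cer and 189, 152 and 65.7 in control skin (log2 0.06 ± 0.68), and the sign turned to -0.23 with the size and GC trend removed.

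**Figure D2:**
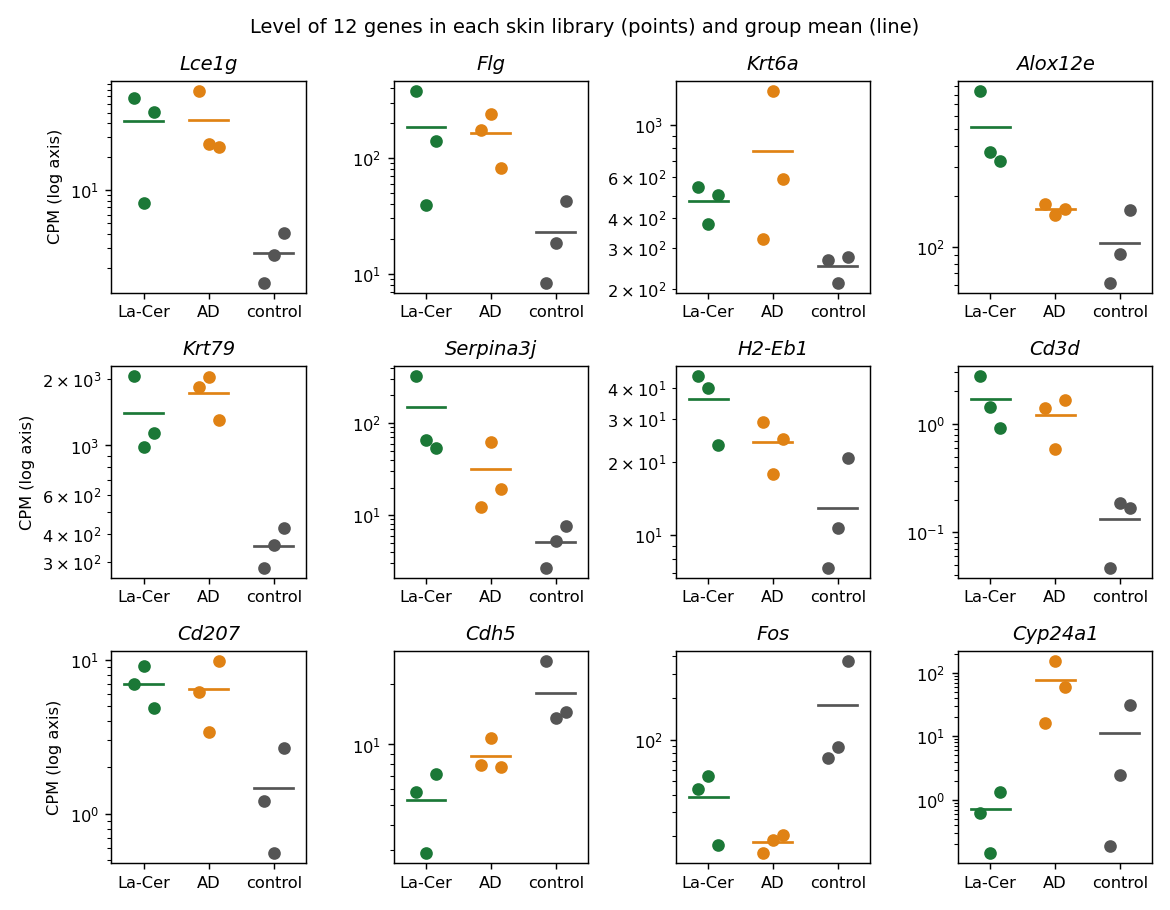
Points are the CPM of 12 genes (log axes) in the 3 La-Cer, 3 AD and 3 control skin libraries, in library order within each group, and lines are group means. La-Cer points of Lce1g, Krt6a, Alox12e, Krt79, Serpina3j, H2-Eb1, Cd3d and Cd207 lie above all control points, those of Cdh5 and Fos below them, and those of Flg and Cyp24a1 overlap.

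Keratins and small proline-rich proteins of stressed or wounded epidermis stood higher on balance. Of 27 tested members of a list of 32, 10 (37.0%) stood higher at an unadjusted p under 0.05 and 0 lower, against 3.73% of all genes tested higher. The 10 include Sprr2a1, Sprr2e and Stfa1, with 5, 3 and 4 counts over the control libraries. These passed the filter on low counts through the other groups and could hardly stand lower. The median log2 difference over the list was 1.50, and 1.07 with the size and GC trend removed. The median was 3.97 in AD skin against the same controls, 2.31 without control library 3 (14 higher) and 0.82 without La-Cer library 1 (4 higher). La-Cer library 1 was the highest of its group for most of those named here.

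Krt16 (chromosome 11, 100246091 to 100248902), a keratin of thickened epidermis, had 411, 30.8 and 113 CPM in La-Cer skin, 411, 1510 and 566 in AD skin, and 22.2, 32.2 and 68.5 in control skin. La-Cer library 2 lay inside the control range, and the log2 difference was 2.17 ± 0.88. Its partner Krt6a had 543, 378 and 502 CPM in La-Cer skin against 266, 212 and 275 in control skin, which did not overlap, with a difference of 0.92 ± 0.48. Sprr1b, a cross-linked small proline-rich protein, had 58.7, 5.03 and 65.6 CPM in La-Cer and 20.6, 15.6 and 4.40 in control skin, with overlap (log2 1.67 ± 0.87).

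The Sprr2 genes and the stefins, protease inhibitors of the cystatin family, have close copies whose reads may be shared. Sprr2a3 had 420, 7.24 and 28.2 CPM in La-Cer skin against 1.87, 3.45 and 16.4 in control skin (log2 4.39 ± 1.40). For Stfa3 the values were 1130, 21.9 and 125 CPM in La-Cer and 0.373, 6.35 and 35.2 CPM in control skin (log2 4.92 ± 1.65). Both overlapped between groups, and La-Cer library 1 stood far above every other La-Cer and control library. Sprr2e had 29 counts over the 3 La-Cer libraries and 3 over the 3 control libraries (ratio per depth 10.3, exact 95% interval 3.19 to 52.7, for counting error only). Lgals7, a galectin of stratified epithelia, was more even, with 14500, 5130 and 5720 CPM in La-Cer and 2160, 4160 and 2650 in control skin, without overlap (log2 1.50 ± 0.50).

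Lipid enzymes made up the next group. Of 38 tested genes of ceramide and acylceramide synthesis, 10 stood higher at an unadjusted p under 0.05 and 0 lower. Libraries did not overlap for 15 upward (39.5%) and 2 downward (5.26%), against 6.48% and 7.05% of all genes tested. The list's median log2 difference was 0.62 in La-Cer and 0.49 in AD skin against the same controls. It was 0.87 without control library 3 (15 higher) and 0.31 without La-Cer library 1 (3 higher). Summed levels were 16300, 4490 and 5310 CPM in La-Cer and 4890, 3970 and 4350 in control skin and overlapped. Slc27a4, the fatty acid transporter FATP4 of the epidermis, had 773, 198 and 337 CPM in La-Cer skin and 163, 142 and 117 in control skin (log2 1.63 ± 0.46). Elovl4, which makes the ultra-long fatty acids of acylceramides, had 2430, 520 and 465 CPM in La-Cer and 263, 322 and 433 in control skin (log2 1.75 ± 0.69). Both were free of overlap, and in both La-Cer library 1 stood well above the other La-Cer libraries.

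Enzymes at other steps of ceramide metabolism had the same placement. Cyp4f39, the mouse counterpart of the enzyme that adds the terminal hydroxyl group of acylceramides, differed by 1.51 ± 0.60, and the ceramide synthase gene Cers4 by 2.08 ± 0.71 on the log2 scale, both without overlap. Acer1, an epidermal ceramidase that breaks ceramides down, had 226, 113 and 125 CPM in La-Cer and 49.7, 47.8 and 83.1 in control skin (log2 1.36 ± 0.41). Cers1, a ceramide synthase known mainly from neurons and muscle, stood lower, at 0.698, 0.719 and 0.647 CPM in La-Cer and 3.03, 1.54 and 4.06 in control skin (log2 -2.05 ± 1.06), without overlap.

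Lipoxygenases oxidise linoleic and arachidonic acid, and those of the epidermis act on acylceramides before they are bound to the envelope. Of 26 tested genes of lipoxygenases and prostanoid enzymes, 4 stood higher at an unadjusted p under 0.05 and 0 lower, with a median of 0.42. The median was 1.12 with 11 higher without control library 3, and 0.38 with 2 higher without La-Cer library 1. Alox12e (chromosome 11, 70315610 to 70322628), an epidermal 12-lipoxygenase of the mouse, had 845, 367 and 324 CPM in La-Cer skin, 180, 156 and 169 in AD skin, and 61.4, 91.4 and 165 in control skin. All La-Cer libraries lay above all AD and all control libraries, and the log2 difference was 2.27 ± 0.47 against control and 1.60 against AD. The 2 lipoxygenases of the acylceramide step differed less from control. Alox12b had 60.2, 59.8 and 31.8 CPM in La-Cer and 3.50, 10 and 68.6 in control skin (log2 0.89 ± 0.92), and Aloxe3 differed by 0.73 ± 0.76. In both, control library 3 had about the level of La-Cer libraries 1 and 2.

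Sebaceous gland genes stood higher as well. Their list shares members with that of ceramide synthesis, among them Scd3 and Elovl3, so these lists are not independent. Of 20 tested markers, 9 stood higher at an unadjusted p under 0.05 and 0 lower, and 8 (40.0%) had no overlap upward, against 6.48% of all genes tested. The summed level was 14700, 3650 and 3940 CPM in La-Cer, 7110, 15400 and 12900 in AD, and 3100, 2540 and 2890 in control skin. The sums of La-Cer and control skin did not overlap (exact two-sided permutation p = 0.1, the smallest possible), and most of the gap came with La-Cer library 1: the median log2 difference over the list was 1.17 with it and 0.26 without it, where 4 members stood higher. Far2, an enzyme of wax synthesis, had 957, 138 and 141 CPM in La-Cer skin and 55.5, 78.2 and 72.8 in control skin (log2 2.58 ± 0.77). Fa2h, a fatty acid hydroxylase, had 2190, 266 and 266 CPM in La-Cer and 105, 140 and 127 in control skin (log2 2.87 ± 0.87).

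Other sebaceous genes named here also had their highest La-Cer level in library 1, with Krt79 more even than Scd3. Scd3, a fatty acid desaturase of the gland, had 389, 135 and 64.9 CPM in La-Cer skin, 72.3, 86.5 and 66.0 in AD skin, and 23.5, 25.6 and 48.5 in control skin (log2 2.59 ± 0.59). Krt79, a keratin of the upper hair follicle and the sebaceous duct, had 2060, 988 and 1140 CPM in La-Cer, 1840, 2030 and 1300 in AD, and 280, 355 and 426 in control skin (log2 1.98 ± 0.41). In every La-Cer library it was at least 2 times as high as in every control library. Pparg, the nuclear receptor that drives sebocyte and fat cell differentiation, overlapped with control and differed by 1.23 ± 0.53.

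Cholesterol synthesis, the other lipid path of the barrier, had 9 of 24 tested genes higher at an unadjusted p under 0.05 and 0 lower, with a median of 0.59. Without La-Cer library 1 the median was 0.24 and 0 genes stood higher at that threshold, and without control library 3 it was 0.42 with 3 higher. Msmo1, a sterol demethylase, had 1130, 168 and 224 CPM in La-Cer and 128, 134 and 119 in control skin (log2 1.99 ± 0.69). Pmvk, an early kinase of the pathway, had 123, 52.4 and 71.8 CPM in La-Cer against 46.0, 38.3 and 35.2 in control skin (log2 1.05 ± 0.34). PPAR targets and fatty acid oxidation had a median of -0.02 over 30 genes, with 4 higher and 1 lower. Without La-Cer library 1 the median was -0.15 with 0 higher and 4 lower, and without control library 3 it was 0.32 with 2 higher and 0 lower. Among them Plin2, a lipid droplet coat protein, differed by 1.70 ± 0.54 and Plin4, a fat cell relative of it, by -0.87 ± 0.38.

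Among kallikreins and protease inhibitors, which control shedding of dead cells, 5 of 23 stood higher at an unadjusted p under 0.05 and 0 lower (median 0.75, and 0.44 with the size and GC trend removed). Leaving out control library 3 gave a median of 1.34 with 10 higher, and leaving out La-Cer library 1 gave 0.80 with 2. Klk8, a kallikrein of the granular layer, had 205, 40.2 and 77.0 CPM in La-Cer and 5.69, 9.98 and 36.4 in control skin (log2 2.63 ± 0.74). Genes of tight junctions and desmosomes, which tie keratinocytes together, had 0 of 31 at that threshold in either direction and a median of 0.08, and 3 stood higher without control library 3 (median 0.47).

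**Figure D3:**
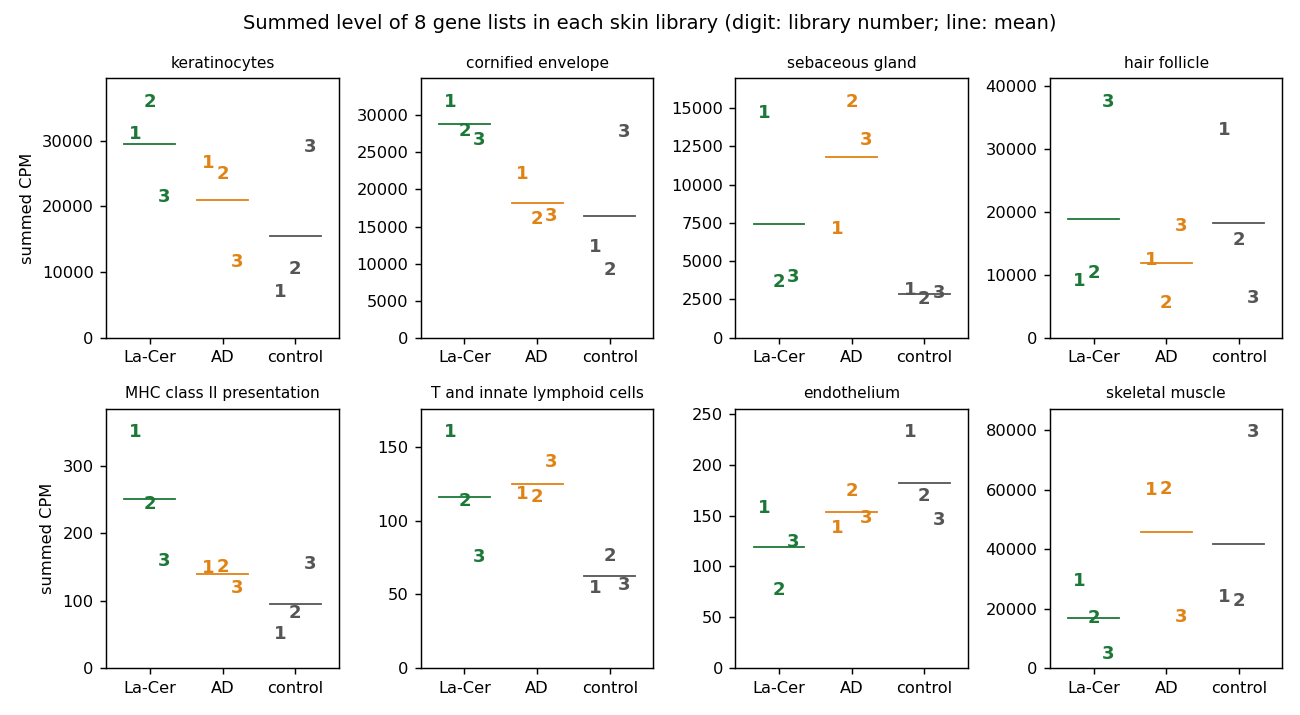
Digits give the summed CPM of 8 gene lists in libraries 1 to 3 of La-Cer, AD and control skin, on axes that start at 0, and lines are means. Control library 3 sits near the La-Cer level for keratinocyte and cornified envelope genes, and La-Cer library 1 stands far above the other La-Cer libraries for the sebaceous gland.

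Genes of antigen presentation by MHC class II stood higher in La-Cer skin. Class II molecules are dimers of an alpha and a beta chain that Langerhans cells, dendritic cells, macrophages and B cells load with peptides in compartments where H2-DM and the invariant chain Cd74 act. Of 12 tested genes of the list, 7 stood higher at an unadjusted p under 0.05 and 0 lower, with a median log2 difference of 1.49, 1.47 with the size and GC trend removed, and 0.92 in AD skin against the same controls. It was 2.0 without control library 3 (7 higher) and 1.20 without La-Cer library 1 (2 higher). H2 genes have related copies whose reads may be shared.

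The promoters of the genes of an alpha and a beta chain are shown because class II genes stood higher together. The 150 bases before the RefSeq start (GRCm38.p6) of H2-Aa, on the minus strand, and H2-Eb1, on the plus strand, hold the conserved Y box CTGATTGG, in capitals, and that of H2-Eb1 also holds the letters AACNGATG of the X box, the capitals further upstream.

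H2-Aa, chr17:34287824-34287973: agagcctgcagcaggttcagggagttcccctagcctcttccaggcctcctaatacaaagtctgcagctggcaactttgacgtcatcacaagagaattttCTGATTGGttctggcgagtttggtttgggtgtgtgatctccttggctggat
H2-Eb1, chr17:34305717-34305866: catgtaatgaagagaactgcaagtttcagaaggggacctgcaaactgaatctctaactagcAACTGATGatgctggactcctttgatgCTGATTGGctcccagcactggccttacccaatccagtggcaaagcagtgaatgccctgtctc

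The Y box lay 51 bases before the start in H2-Aa and 62 bases before it in H2-Eb1. Searched on both strands, it was in 3.16% of all 32851 promoters of this length and in 4 of the 10 list members with a promoter in the table, and the X box letters were in 1.14% of all and in 4 of the 10. H2-Eb1 (chromosome 17, 34305867 to 34316674) had 45.0, 40.1 and 23.5 CPM in La-Cer skin, 29.2, 17.9 and 24.9 in AD skin, and 7.33, 10.7 and 20.7 in control skin (log2 1.49 ± 0.43). H2-Aa had 23.3, 11.2 and 7.28 CPM in La-Cer and 2.66, 3.27 and 7.85 in control skin (log2 1.60 ± 0.56). H2-Eb1 was higher in every La-Cer library than in every control library, whereas H2-Aa overlapped at control library 3.

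The loading factors stood with them. H2-DMa had 23.8, 17.1 and 12.5 CPM in La-Cer and 3.73, 5.67 and 8.24 in control skin, without overlap (log2 1.60 ± 0.44). H2-DMb2 differed by 2.25 ± 0.71, also without overlap. Cd74 had 196, 140 and 94.5 CPM in La-Cer skin, 63.2, 62.5 and 23.8 in AD skin, and 26.8, 44.0 and 95.1 in control skin (log2 1.37 ± 0.52 against control and 1.52 against AD). La-Cer library 3 and control library 3 had almost the same Cd74 level.

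Markers of the cells that carry class II were looked at beside these genes. Of 20 tested dendritic and Langerhans cell markers, 5 stood higher at an unadjusted p under 0.05 and 0 lower (median 0.34). Log2 differences were above 0 for 14 and below 0 for 6, with 6 free of overlap upward (30.0%) and 1 downward (5.0%). Over all genes tested these shares were 6.48% and 7.05%. Taken singly, La-Cer library 3 had a list median of -0.12 against the control mean. Without La-Cer library 1 the median was 0.10 with 2 higher, and without control library 3 it was 0.54 with 6. Their sums were 403, 370 and 440 CPM in La-Cer and 292, 311 and 294 in control skin. Cd207, langerin of Langerhans cells, had 6.91, 9.11 and 4.85 CPM in La-Cer skin, 6.18, 3.41 and 9.83 in AD skin, and 1.21, 0.554 and 2.67 in control skin (log2 2.23 ± 0.62). Itgax, the CD11c integrin of dendritic cells, had 8.15, 3.16 and 1.78 CPM in La-Cer and 0.327, 0.123 and 1.22 in control skin (log2 2.94 ± 0.88). Neither overlapped. Macrophage markers had 0 of 19 at that threshold in either direction and a median of 0.13, and their part in the class II values was not tested.

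T and innate lymphoid cell genes had the highest median of the 42 lists with 7 or more genes tested, 1.76 over 19 genes. Of these, 11 stood higher at an unadjusted p under 0.05 and 0 lower, and 7 (36.8%) had no overlap upward, against 6.48% of all genes tested. The median was 1.57 with the size and GC trend removed and 1.94 in AD skin against the same controls. Without control library 3 it was 2.37 (12 higher) and without La-Cer library 1 it was 1.37 (6 higher). Levels were low: 13 of the 32 list members did not pass the filter on low counts, among them Cd4, Cd8a, Foxp3 and Trac, and a member that passes through one group only had to differ. The sum over all 32 was 160, 113 and 75.5 CPM in La-Cer and 54.2, 76.1 and 56.6 in control skin, where La-Cer library 3 and control library 2 overlapped.

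Cd3d, a chain of the T cell receptor complex, had 2.79, 1.44 and 0.916 CPM in La-Cer skin, 1.41, 0.593 and 1.66 in AD skin, and 0.0467, 0.185 and 0.167 in control skin (log2 3.64 ± 0.81). Every La-Cer library had several times the level of every control library. Trdc, the constant chain of gamma-delta T cells, had 6.60, 4.41 and 0.431 CPM in La-Cer and 0.140, 0.0616 and 0.501 in control skin (log2 3.98 ± 1.08) and overlapped. Nkg7, a granule protein of cytotoxic cells, had 3.73, 2.49 and 0.808 CPM in La-Cer and 0.373, 0.185 and 0.501 in control skin (log2 2.69 ± 0.74). Icos, a costimulatory receptor of activated T cells, had 32 counts over La-Cer and 2 over control libraries (ratio per depth 17, exact 95% interval 4.34 to 147).

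Lymphocyte attractants and their receptors were in part higher. Of 31 tested chemokine genes, 6 stood higher and 1 lower at an unadjusted p under 0.05 (median 0.49, and 1.54 in AD skin against the same controls). Without La-Cer library 1 the median was 0.18 with 2 higher, and without control library 3 it was 1.14 with 6, and 0 stood lower in either fit. Ccl27a, a chemokine of keratinocytes that draws skin-homing T cells, had 307, 214 and 139 CPM in La-Cer, 167, 85.4 and 285 in AD, and 28.5, 58.4 and 103 in control skin (log2 1.80 ± 0.55). Cxcr6, a receptor of tissue-resident T cells, had 1.71, 2.25 and 0.754 CPM in La-Cer and 0.140, 0.185 and 0.278 in control skin (log2 2.93 ± 0.72). With 11 counts over the control libraries, Cxcr6 passed the filter on low counts through the other groups and could hardly stand lower. Ccl22, a chemokine of dendritic cells for type 2 T cells, differed by 2.31 ± 0.99. Cxcl13, a B cell attractant, stood lower, at 0.233, 0.671 and 0.162 CPM in La-Cer and 0.794, 1.54 and 2.78 in control skin (log2 -2.20 ± 0.88).

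Type 2 cytokines themselves showed no common direction. Of 22 tested genes of a list of 33, 3 stood higher at an unadjusted p under 0.05 and 0 lower, with a median of 0.16, and without control library 3 the median was 1.25 with 9 higher and without La-Cer library 1 it was 0.11 with 2. Il13ra2, the decoy receptor that interleukin 13 induces, had 16.9, 2.35 and 2.75 CPM in La-Cer skin, 7.89, 29.5 and 25.8 in AD skin, and 0.467, 0.801 and 1.11 in control skin, without overlap (log2 3.20 ± 0.86). Il4 had 0.388, 1.05 and 1.02 CPM in La-Cer and 1.07, 0.986 and 0.891 in control skin (log2 -0.24 ± 0.71). Il13 had 5 counts over the La-Cer and 0 over the control libraries, at least 1.77-fold higher against a floor of 3 counts over the group, and was not tested.

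The keratinocyte alarmins depended on 1 control library. Tslp had 1.79, 2.78 and 0.862 CPM in La-Cer skin, 4.10, 4.30 and 5.20 in AD skin, and 0.467, 0.678 and 9.74 in control skin. Its log2 difference was -1.0 ± 0.98 with all libraries and 1.71 without control library 3. Il33 had 24.2, 48.0 and 10.9 CPM in La-Cer and 7.14, 14.8 and 69.3 in control skin, with a log2 difference of -0.13 ± 0.77 with all libraries and 1.40 without control library 3.

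Of the interleukin 1 and interleukin 36 family, 2 of 17 tested genes stood higher at an unadjusted p under 0.05 and 0 lower (median 0.73, 1.75 without control library 3 with 11 higher, and 0.79 without La-Cer library 1 with 1). Il1f6, which encodes the keratinocyte cytokine interleukin 36 alpha, had 6.75, 0.863 and 3.07 CPM in La-Cer, 10.1, 7.71 and 10.8 in AD, and 0.0467, 0.0616 and 0.390 in control skin (log2 4.37 ± 0.91). With 9 counts over the control libraries, it passed the filter on low counts through the other groups and could hardly stand lower. Il1f8, interleukin 36 beta, overlapped with control and differed by 2.19 ± 0.89. Among interleukin 17 targets and antimicrobial proteins 1 of 20 (5.0%, against 3.73% of all genes tested) stood higher and 0 lower (median 0.50, and 0.08 without La-Cer library 1). That gene, Defb6, a beta-defensin of skin, had 213, 116 and 102 CPM in La-Cer, 441, 272 and 714 in AD, and 18.8, 32.1 and 35.4 in control skin, without overlap (log2 2.32 ± 0.46).

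Both S100a8 and S100a9, alarmins of neutrophils and stressed keratinocytes, overlapped between La-Cer and control skin. S100a8 had 8.15, 2.64 and 22.7 CPM in La-Cer skin, 28.7, 125 and 353 in AD skin, and 7.24, 13.2 and 3.73 in control skin (log2 0.47 ± 0.91 against control). S100a9 had 8.77, 3.64 and 8.62 CPM in La-Cer and 0.747, 2.59 and 4.40 in control skin (log2 1.44 ± 1.04). The sign of S100a8 turned under other settings. Mpo, the peroxidase of neutrophil granules, had 80 counts over the La-Cer and 0 over the control libraries, which is at least 28.4-fold higher against a floor of 3 counts over the group, and La-Cer library 1 held most of them (4.35, 0.815 and 0.377 CPM in La-Cer). With 0 counts in control, Mpo passed the filter on low counts only through the other groups and could not stand lower.

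Of mast cell and basophil markers, 1 of 13 tested (7.69%, against 3.73% of all genes tested) stood higher and 0 lower (median 0.03, 2.17 in AD skin against the same controls, and 0.59 without control library 3 with 3 higher). The gene higher with all libraries was Cma1, the chymase of connective tissue mast cells. It had 6.91, 2.30 and 2.96 CPM in La-Cer skin, 9.30, 19.6 and 30.0 in AD skin, and 1.40, 0.801 and 1.28 in control skin, without overlap (log2 1.79 ± 0.57). Summed mast cell levels overlapped, at 43.5, 57.8 and 73.9 CPM in La-Cer and 71.1, 70.0 and 61.0 in control skin.

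**Figure D4:**
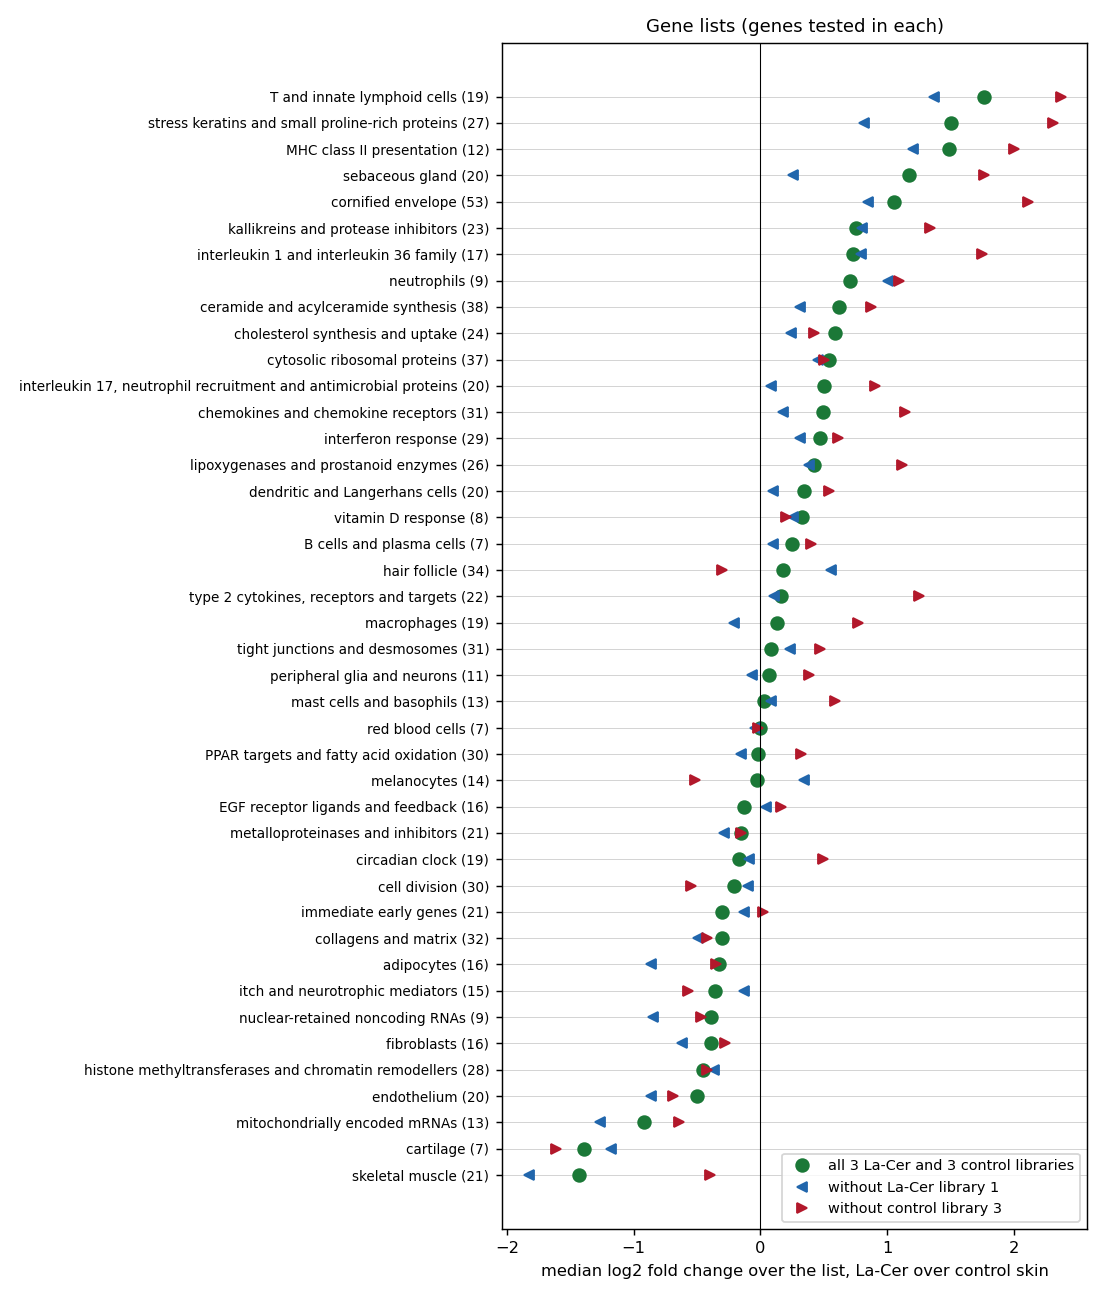
For 42 gene lists with 7 or more genes tested (number in brackets), circles give the median log2 difference between La-Cer and control skin with all libraries, left-pointing triangles without La-Cer library 1 and right-pointing triangles without control library 3. T cell, stress keratin, MHC class II, sebaceous and envelope lists lie to the right of 0 in all 3 fits, and skeletal muscle, mitochondrial and endothelial lists to the left.

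Endothelial genes stood lower on balance in La-Cer skin. Of 20 tested markers, 5 stood lower at an unadjusted p under 0.05 and 0 higher, 7 had no overlap downward, and the median log2 difference was -0.50, -0.52 with the size and GC trend removed, and -0.41 in AD skin against the same controls. It was -0.69 without control library 3 (5 lower) and -0.86 without La-Cer library 1 (5 lower), and ran from -0.86 to -0.38 with 1 library left out. Taken singly, La-Cer libraries 1 to 3 had list medians of 0.10, -1.28 and -0.52 against the control mean. Cdh5 (chromosome 8, 104101625 to 104144511), the cadherin of endothelial junctions, had 5.82, 2.88 and 7.11 CPM in La-Cer, 7.89, 10.8 and 7.73 in AD, and 26.0, 13.6 and 14.5 in control skin (log2 -1.77 ± 0.44). Every control library had more than every La-Cer library.

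The receptors of vascular growth factors had the same order. Kdr, the main receptor of vascular endothelial growth factor A, had 3.34, 2.21 and 3.18 CPM in La-Cer and 12.6, 7.21 and 7.35 in control skin (log2 -1.64 ± 0.42). Flt1, its decoy relative, had 6.05, 2.21 and 4.85 CPM in La-Cer and 15.6, 9.92 and 15.1 in control skin (log2 -1.64 ± 0.43). Tek, the angiopoietin receptor, differed by -1.12 ± 0.47 and Eng, endoglin, by -1.10 ± 0.42. Not all endothelial genes stood lower, as 5 of the 20 tested had a log2 difference above 0. Pecam1, a junction protein, leaned lower but overlapped, with 28.7, 8.25 and 14.6 CPM in La-Cer and 31.2, 20.4 and 17.5 in control skin (log2 -0.42 ± 0.51). Summed endothelial levels were 157, 76.8 and 124 CPM in La-Cer and 232, 169 and 146 in control skin (exact two-sided permutation p = 0.2).

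Fibroblast markers had 2 of 16 lower at an unadjusted p under 0.05 and 0 higher, with a median of -0.39, and 0.59 in AD skin against the same controls. It was -0.62 without La-Cer library 1, with 2 lower, and -0.28 without control library 3, with 2 lower and 1 higher. Pdgfra, a growth factor receptor of fibroblasts, had 4.81, 5.75 and 5.55 CPM in La-Cer, 6.67, 12.5 and 13.1 in AD, and 14.2, 10.4 and 11.1 in control skin (log2 -1.15 ± 0.37). Dcn, the matrix proteoglycan decorin, had 76.8, 67.3 and 119 CPM in La-Cer, 193, 219 and 304 in AD, and 160, 219 and 131 in control skin (log2 -0.95 ± 0.34). In both, La-Cer skin was below both other groups in every library. Collagens and matrix genes had 3 of 32 lower and 1 higher, and the gene higher was Fmod, fibromodulin (log2 2.01 ± 0.68). There were 8 lower and 4 higher without control library 3.

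Skeletal muscle genes, which in a skin sample come from the thin muscle under it, had a median of -1.43 with 5 of 21 lower at an unadjusted p under 0.05 and 0 higher. Without control library 3 the median was -0.40 with 0 lower. Myh4, a fast myosin, had 253, 1890 and 35.7 CPM in La-Cer, 3940, 4580 and 536 in AD, and 4520, 4380 and 13400 in control skin (log2 -3.35 ± 1.28). Myl2, a slow and cardiac myosin light chain, had 0, 0.192 and 0 CPM in La-Cer, 11.7, 24.2 and 21.5 in AD, and 1.45, 0.924 and 2.17 in control skin. Summed muscle levels were 29300, 16700 and 4620 CPM in La-Cer and 23800, 22500 and 79400 in control skin and overlapped. Dmd, dystrophin, Ryr1, the calcium release channel of muscle, and the muscle channel subunit Lrrc38 were among the genes that stood lower and differed by -1.34 ± 0.32, -2.33 ± 0.81 and -2.45 ± 0.62.

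Immediate early genes, which cells switch on within minutes of stimulation or handling, had 4 of 21 lower and 1 higher at an unadjusted p under 0.05, with a median of -0.30. Fos (chromosome 12, 85473890 to 85477273) had 44.0, 54.8 and 17.4 CPM in La-Cer, 15.1, 18.8 and 20.6 in AD, and 73.1, 88.9 and 370 in control skin (log2 -2.20 ± 0.63). Fosb, its relative, had 5.04, 4.55 and 1.99 CPM in La-Cer and 25.3, 8.81 and 94.2 in control skin (log2 -3.47 ± 1.08). Control library 3 was the highest for both, yet the other controls also lay above all La-Cer libraries. Without control library 3 the list's median was 0.02 with 2 lower and 2 higher, and without La-Cer library 1 it was -0.13 with 3 lower. Ier3, the member that stood higher, differed by 0.85 ± 0.26.

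Malat1 and Xist, nuclear noncoding RNAs, stood lower in La-Cer skin without reaching an unadjusted p under 0.05. Malat1 had 259, 275 and 91.6 CPM in La-Cer, 40.7, 112 and 89.3 in AD, and 384, 359 and 461 in control skin (log2 -0.94 ± 0.47). Xist, the RNA of the inactive X chromosome, had 286, 523 and 166 CPM in La-Cer, 74.6, 146 and 188 in AD, and 620, 542 and 737 in control skin (log2 -0.96 ± 0.46). Histone methyltransferases and chromatin remodellers had 0 of 28 at an unadjusted p under 0.05, and 8 (28.6%) with no overlap downward, against 7.05% of all genes tested. The list's median was -0.45, which was -0.14 with the size and GC trend removed and -1.24 in AD skin against the same controls. Kmt2d, a histone methyltransferase with a long transcript, had 75.1, 206 and 59.5 CPM in La-Cer, 10.9, 25.9 and 3.69 in AD, and 184, 149 and 244 in control skin (log2 -0.76 ± 0.65).

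Mitochondrially encoded mRNAs had 3 of 13 lower at an unadjusted p under 0.05 and 0 higher, with a median of -0.92. It was -0.64 with 1 lower without control library 3, and -1.27 with 5 lower without La-Cer library 1. Cytosolic ribosomal proteins had 2 of 37 higher (5.41%, against 3.73% of all genes tested) and 0 lower. Their median was 0.54, and 0.24 with the size and GC trend removed, and 0 stood higher without either of these libraries. Mitochondrial sums were 53100, 41500 and 20200 CPM in La-Cer and 41800, 89900 and 98600 in control skin, and ribosomal sums were 43100, 28100 and 40700 CPM in La-Cer and 22300, 30600 and 22900 in control skin. Both overlapped between the groups, and their part in the other results was not tested.

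Calcipotriol acts through the vitamin D pathway, whose receptor gene was near control levels. Vdr, the receptor, had 150, 161 and 172 CPM in La-Cer skin, 67.0, 83.4 and 59.6 in AD skin, and 208, 217 and 119 in control skin (log2 -0.17 ± 0.30). Cyp24a1, the enzyme that breaks down active vitamin D and its best-known target gene, had 0.621, 0.144 and 1.35 CPM in La-Cer, 16.3, 154 and 59.6 in AD, and 0.187, 2.46 and 31.4 in control skin. Its log2 difference was -4.00 ± 1.54 from control and -6.76 from AD. La-Cer libraries lay below every AD library and overlapped with the controls, of which control library 3 was the highest. Of 8 tested genes of the pathway, 1 stood lower at an unadjusted p under 0.05 and 0 higher, and 0 stood lower without control library 3.

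Genes outside the lists were among those with the smallest p. Serpina3j (chromosome 12, 104314553 to 104320725), a member of a family of mouse serine protease inhibitors with near-identical copies, had the smallest unadjusted p of all genes. It had 327, 66.3 and 53.9 CPM in La-Cer skin, 12.4, 63.1 and 19.3 in AD skin, and 2.66, 5.24 and 7.63 in control skin (log2 4.85 ± 0.92, edgeR adjusted p = 0.836). Each La-Cer library had at least 7 times the level of each control library. Prss27, a membrane-bound serine protease of stratified epithelia, had 30.1, 5.56 and 15.3 CPM in La-Cer and 1.35, 2.46 and 1.28 in control skin (log2 3.32 ± 0.68). Kcnk7, a potassium channel subunit, was even, with 40.4, 28.1 and 29.1 CPM in La-Cer against 11.8, 14.8 and 12.5 in control skin (log2 1.32 ± 0.29). Slc38a5, an amino acid transporter named for its large difference, had 85 counts over La-Cer and 1 over control libraries (ratio per depth 90.4, exact 95% interval 15.8 to 3610, for counting error only), and La-Cer library 1 held most of them (4.97, 0.671 and 0.377 CPM in La-Cer). With 1 count in control, Slc38a5 passed the filter on low counts only through the other groups and could hardly stand lower.

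Immune genes were in this set too. Ltb, lymphotoxin beta of lymphocytes, had 6.05, 3.12 and 1.94 CPM in La-Cer and 0.467, 0.123 and 0.612 in control skin (log2 3.17 ± 0.67). Cd72, a B cell coreceptor, had 5.67, 4.94 and 2.96 CPM in La-Cer and 0.513, 0.431 and 0.946 in control skin (log2 2.83 ± 0.58). Neither overlapped. Igha, the constant region of immunoglobulin A, differed by 2.06 ± 0.63, and the other 6 tested B and plasma cell markers did not reach an unadjusted p under 0.05.

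On the lower side, Tln2, a talin that links integrins to actin, had 27.9, 28.4 and 31.0 CPM in La-Cer, 23.6, 26.4 and 15.8 in AD, and 64.1, 59.0 and 58.1 in control skin (log2 -1.05 ± 0.27). Its 3 La-Cer values and its 3 control values each lay within a narrow band, with the control band higher. Shank3, a scaffold protein best known from synapses, had 1.16, 1.77 and 0.754 CPM in La-Cer and 8.54, 5.11 and 5.4 in control skin (log2 -2.36 ± 0.55). Casr, the calcium-sensing receptor, through which calcium drives keratinocyte differentiation, had 0, 0.767 and 0.108 CPM in La-Cer, 0.245, 0.964 and 0 in AD, and 3.31, 3.45 and 8.18 in control skin (log2 -3.97 ± 1.22). Gprc5c, an orphan receptor, differed by -1.47 ± 0.36 and Klhl23 by -1.22 ± 0.31.

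Several processes of dermatitis had no gene at an unadjusted p under 0.05 in either direction between La-Cer and control skin. They were cell division (0 of 30, median -0.21), EGF receptor ligands and feedback (0 of 16, median -0.13), metalloproteinases and their inhibitors (0 of 21, median -0.15) and itch and neurotrophic mediators (0 of 15, median -0.36). Leaving out control library 3, 2 genes of cell division stood lower, and 1 metalloproteinase list member and 1 itch list member stood higher, with 1 more of the itch list lower. Leaving out La-Cer library 1, 1 gene of the EGF list stood lower. For metalloproteinases the median in AD skin against the same controls was 1.09. The interferon response had 4 of 29 higher and 0 lower (median 0.47), among them the antiviral gene Mx1 (log2 1.85 ± 0.72), and without La-Cer library 1 it had 0 higher (median 0.31). A p that misses the threshold in 3 mice against 3 does not show that these genes were alike.

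Genes that AD skin had changed were also read in La-Cer skin, with the same control libraries in both comparisons. AD skin had 580 genes called higher than control (3.42%) and 583 called lower (3.44%) at an adjusted p under 0.05. The 580 had a median log2 difference from control of 0.75 in La-Cer skin and 1.89 in AD skin. For the 583 the median was -0.40 in La-Cer skin and -1.62 in AD skin. La-Cer and AD skin compared directly gave 0 called genes (0.0%) and a smallest adjusted p of 0.0585 in edgeR's test, so the smaller medians in La-Cer skin rest on genes chosen in AD skin and were not called as a difference.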

How the data were processed

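RNA of skin was sequenced as 1 library per mouse. The labels' protocols give an Eastep (Promega) extraction kit and a SMARTER library kit. Tools named in the submitters' processing notes are cutadapt 1.9.1 and bcl2fastq 2.17.1.14, with GRCm38 as the build. No source here names the aligner, counter or strandedness, so reads of antisense, overlapping or near-identical genes may be mixed. The authors' deposited table holds raw read counts per Ensembl gene, per the file headers. The authors also deposited FPKM, which equal the count over exonic size and column total within 0.0051 and were not tested.

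The 9 skin libraries were fitted together in edgeR 4.0.16 with filterByExpr, TMM scaling, the group as the only term and the robust quasi-likelihood test. Genes with few counts in control, such as Il1f6, Cxcr6, Mx1 and Slc38a5, passed this filter through the other groups. They could hardly stand lower in La-Cer skin. The reverse held for genes with few counts in La-Cer skin, such as Casr. P-values were adjusted by the Benjamini-Hochberg method over 16956 genes and called at 0.05, and they measure the spread between these mice. The scripts were tested on simulated data. CPM are per TMM library size. Log2 differences are given ± SE. Without molecular identifiers, count intervals (95%, exact) and the floor of 3 counts over a group cover counting error only.

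Members, 43 gene lists and tests were chosen with earlier results of these data known. The text names a fixed set (Vdr, Cyp24a1, Krt16, Flg and others), and per direction the 12 smallest p and 8 largest differences, with no overlap and at least 1 CPM in the higher group. It also names up to 4 members per list. Genes outside that rule were chosen after their values were seen: Krt1, Krt5, Krt10, Krt14, Trp63, Lce1h, Hrnr, Casp14, Asprv1, Cnfn, Calm4, Lgals7, Stfa3, Elovl4, Cyp4f39, Cers1, Cers4, Fa2h, Far2, Alox12b, Aloxe3, Cd74, Cxcl13, Tek and Pecam1. Alternatives were RLE scaling, DESeq2 1.42.0, no filter, 6 libraries only, limma 3.58.1 with library weights, removal of the size and GC trend (GC content from GENCODE vM21), the replicate number as a block, and each library left out. Counts of list members without La-Cer library 1 or control library 3 were added after seeing the data. Promoters are RefSeq's, from GRCm38.p6.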

Additional observations from a re-analysis of the deposited data

How the results depend on the processing

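edgeR called 0 genes under RLE scaling, the 6 libraries alone, the block, the trend removed and each library left out, and 7 with no filter on low counts. limma voom with library weights called 0 and DESeq2 67. Genes higher at an unadjusted p under 0.05 numbered 1499 with library weights, and leaving out 1 library gave 191 to 1099. Genes lower numbered 1103 with library weights and 530 with no filter, and 191 to 534 with 1 library left out. The counts of genes without overlap stayed within 1.5 times under RLE scaling and with the trend removed. No pairing of mice by replicate number was seen: same-numbered La-Cer and control libraries deviated from their group means with correlations of -0.32, -0.46 and -0.73, and 0 of 3 correlated best with their own number. The labels state no pairing, and with 3 mice in each group these values cannot exclude it. With the replicate block, 365 genes stood higher and 213 lower, and with the block and the trend removed 313 and 212.

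Of 150 genes followed, 145 had the same sign in every alternative that gave a value. Ivl turned to -0.23 with the replicate block, -0.58 with library weights, -0.23 with the trend removed, -0.46 with block and trend removed, and spanned -1.08 to 0.48 with 1 library left out. S100a8 turned to -0.01, -0.10 and -0.25 with the block, the weights, and block and trend, and spanned -0.60 to 1.03. Tslp was 1.22 with weights and spanned -1.52 to 1.71. Il33 was 0.06 with the block and 1.05 with weights and spanned -0.79 to 1.40. Il4 spanned -0.45 to 0.08. List medians that crossed 0 with 1 library left out were PPAR targets (-0.15 to 0.32), EGF receptor ligands (-0.45 to 0.16), circadian clock (-0.36 to 0.49), immediate early genes (-0.32 to 0.02), mast cells (-0.16 to 0.59, and -0.15 with block and trend removed), hair follicle (-1.54 to 1.05), macrophages (-0.21 to 0.77), tight junctions (-0.07 to 0.47), type 2 cytokines (-0.01 to 1.25), cell division (-0.58 to 0.07), melanocytes (-1.89 to 0.40), glia (-0.07 to 0.38) and red blood cells (-0.31 to 0.21). The cause was not tested for any of these. Genes with few counts, such as those of T cells and Il13, are limited by depth.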

Other observations

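The remaining cell type and process lists held few genes away from control, and in several 1 library set the range. Of 34 tested hair follicle markers 1 (2.94%, against 3.73% of all genes tested) stood higher at an unadjusted p under 0.05 and 0 lower (median log2 0.18). Of 14 melanocyte markers 0 did in either direction (median -0.03). Summed melanocyte levels were 738, 323 and 3730 CPM in La-Cer and 2560, 2240 and 178 CPM in control skin, so pigment cell genes were high in La-Cer library 3 and control libraries 1 and 2, the libraries in which hair follicle genes were also high. Adipocyte markers had 2 of 16 lower and 0 higher (median -0.33), and 5 lower without La-Cer library 1 (median -0.86). The hormone gene Lep, leptin of fat cells, had 14.7, 6.95 and 9.27 CPM in La-Cer, 8.81, 6.23 and 6.51 in AD, and 45.4, 32.0 and 10.6 in control skin (log2 -1.51 ± 0.50), with overlap at control library 3. Circadian clock genes had 1 of 19 lower, Per2, a repressor of the clock (log2 -1.22 ± 0.53), and a median of -0.17.

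Of 9 tested neutrophil markers in a list of 18, 1 stood higher, Mpo, and 0 lower (median 0.71, and 2.06 in AD skin against the same controls). Mpo had 0 counts in control skin, so it passed the filter only through the other groups and could not stand lower. Summed neutrophil levels were 87.4, 170 and 184 CPM in La-Cer and 130, 142 and 113 CPM in control skin and overlapped. The eosinophil list had 2 tested genes of 10, 1 of them higher, Alox15, with a median of 1.95, and Epx and Prg3, eosinophil granule proteins, were at 0 in all 6 libraries. Alox15 had 11 counts over the control libraries, so it also passed the filter through the other groups. Markers of B and plasma cells had 1 of 7 higher (median 0.25), peripheral glia and neurons 0 of 11 in either direction (median 0.07) and red blood cells 0 of 7 (median 0.00). The cartilage list had 2 of 7 higher and 1 lower and a median of -1.39, and 1 higher and 3 lower without control library 3. Nuclear-retained noncoding RNAs had 1 of 9 lower, Rian (log2 -1.26 ± 0.43), and 0 higher (median -0.39, and -0.85 without La-Cer library 1 with 2 lower).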
